A study of Rattus norvegicus with 49 samples.

Results

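Dbp, Tef, Hlf, Nfil3, Bhlhe40 and Bhlhe41, the transcription factors that carry the signal of the circadian clock to other genes, were followed in rat liver across 5 diet groups and 2 sampling days. They were chosen by name, and each is represented by the probe set with the highest mean log2 intensity among those annotated with that symbol alone. All 6 were found, with 11 probe sets in all, among 14217 genes tested. The livers came from 49 male Sprague Dawley rats about 8 to 10 weeks old, each measured once on an Affymetrix array after the assigned feeding. Group 1 ate powdered feed ad libitum and was not fasted, and group 2 ate ad libitum and was fasted overnight before necropsy. Groups 3, 4 and 5 received 85%, 70% and 40% of the ad libitum amount and had the same overnight fast. Day 4 and day 14 used different rats, 5 for every diet and day apart from group 1 at day 14, which had 4. Group 2 served as the control.

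The clock of a mammalian cell is a feedback loop in which CLOCK or NPAS2 pairs with BMAL1 on E-box sequences and drives the genes of its own repressors. DBP, TEF and HLF are the PAR bZIP factors, which activate genes through D-box sequences, and they are best known in liver for passing the daily rhythm to genes of drug, bile acid and lipid metabolism. NFIL3 is a bZIP repressor that binds the same D-boxes. BHLHE40 and BHLHE41, also called DEC1 and DEC2, are bHLH repressors that bind E-boxes and restrain the clock's activators.

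The 250 bases before the annotated start show where the clock's E-box falls in these genes. RefSeq windows on the rat assembly GRCr8 were matched for 5 of the 6 genes, and the entry for Hlf was not matched. The windows searched were chr1:105312006-105312255 (plus strand) for Dbp, chr7:115206577-115206826 (plus) for Tef, chr17:12432126-12432375 (plus) for Nfil3, chr4:143174200-143174449 (plus) for Bhlhe40 and chr4:180569356-180569605 (minus) for Bhlhe41. The E-box CACGTG, which reads the same on both strands, was found in Tef, Bhlhe40 and Bhlhe41 and stands in capitals in the sequences that follow. It lay at bases -198 to -193 of Tef, -220 to -215 of Bhlhe40 and -48 to -43 of Bhlhe41, counted back from the start. Of 33469 windows of this length in the table, 5.593% held it. The D-box TTANGTAA (2.044% of windows), the core TNGGTCA bound by REV-ERB and ROR receptors (9.465%) and the cAMP response element TGACGTCA (1.587%) were sought on both strands and not found in any of the 5. The window of Dbp, the gene that varied most of the 6, is shown beside them and held none of the 4 motifs. A match is a description of letters and not a site of binding. Other parts of the genes and other forms of the E-box were not searched. A window without a match is therefore not a gene without the motif.
Tef: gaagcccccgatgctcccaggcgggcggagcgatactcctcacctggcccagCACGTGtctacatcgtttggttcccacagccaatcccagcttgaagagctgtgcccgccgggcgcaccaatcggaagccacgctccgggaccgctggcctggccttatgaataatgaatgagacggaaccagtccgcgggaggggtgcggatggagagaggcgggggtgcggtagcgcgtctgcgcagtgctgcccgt
Bhlhe40: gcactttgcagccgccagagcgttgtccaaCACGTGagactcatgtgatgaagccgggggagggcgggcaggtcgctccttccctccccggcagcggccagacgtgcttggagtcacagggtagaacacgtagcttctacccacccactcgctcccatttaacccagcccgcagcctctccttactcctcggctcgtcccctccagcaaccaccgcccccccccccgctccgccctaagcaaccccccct
Bhlhe41: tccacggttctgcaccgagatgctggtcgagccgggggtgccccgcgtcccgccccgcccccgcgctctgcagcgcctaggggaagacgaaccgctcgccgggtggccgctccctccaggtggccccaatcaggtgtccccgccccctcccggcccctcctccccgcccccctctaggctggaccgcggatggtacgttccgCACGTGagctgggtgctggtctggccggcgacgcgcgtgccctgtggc
Dbp: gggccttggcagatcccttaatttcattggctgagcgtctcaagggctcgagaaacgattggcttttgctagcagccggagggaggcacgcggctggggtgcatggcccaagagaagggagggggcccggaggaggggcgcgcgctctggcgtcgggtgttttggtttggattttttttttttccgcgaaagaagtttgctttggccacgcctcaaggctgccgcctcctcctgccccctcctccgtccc

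All 6 genes varied more than most of the array. Ranked by variance over the 49 rats among 14217 genes, Dbp was 4th, Bhlhe41 46th, Bhlhe40 76th, Tef 176th, Nfil3 363rd and Hlf 576th. The means of the 10 diet-by-day groups spanned 4.81 log2 units for Dbp, 2.76 for Bhlhe41, 2.67 for Bhlhe40, 2.06 for Tef, 1.32 for Hlf and 1.25 for Nfil3. The pooled standard deviation between rats of the same group was 0.66 for Dbp, 0.60 for Bhlhe41, 0.52 for Bhlhe40, 0.40 for Nfil3, 0.28 for Tef and 0.26 for Hlf, against a median of 0.14 over all genes. Bhlhe41 was dim, with 21 of 49 arrays under 5.31, the 20th percentile of all gene means, so its low values carry less information than those of the other 5.

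**Figure D1:**
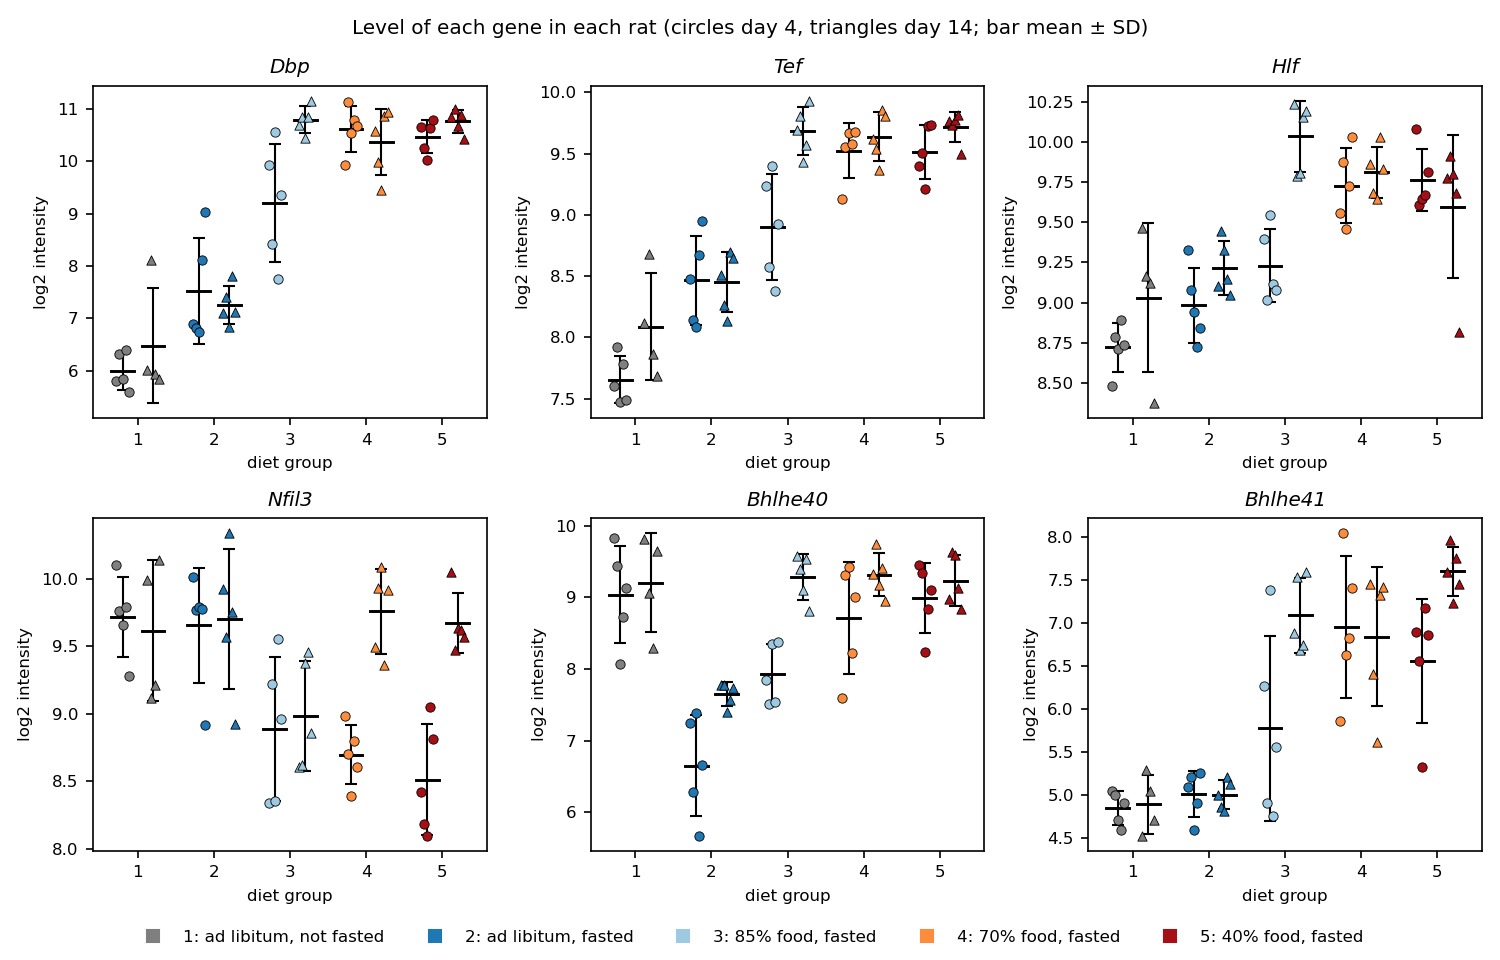
Log2 intensity (vertical axes) of each gene in each rat by diet group (horizontal axes); circles are day 4, triangles day 14, and bars give the mean and SD. Dbp lies between 5.58 and 6.39 in group 1 at day 4 and between 10.44 and 11.01 in group 5 at day 14, while Nfil3 in groups 4 and 5 is low at day 4 only.

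The first question was how food restriction moved these genes relative to fasted control rats. The differences were tested with limma, one pair of groups at a time, and were called at a Benjamini-Hochberg adjusted p under 0.1 over 14217 genes. At day 4, 6 of 6 genes were called in group 4 and 6 of 6 in group 5, 5 of them higher and Nfil3 lower, where 5.43% and 7.14% of all genes were called. In group 3 at day 4 none of the 6 was called, 3 had an unadjusted p under 0.05, and 0.253% of all genes were called. At day 14, 5 of 6 were called in group 3 (6.54% of all genes), 5 in group 4 (12.8%) and 4 in group 5 (19.8%), all higher. The median log2 difference of the 6 genes was 1.50 and 1.30 in groups 4 and 5 at day 4, and 1.44, 1.43 and 1.43 in groups 3, 4 and 5 at day 14. The rats of the 2 groups did not overlap for 2.03%, 4.87% and 5.9% of all genes in groups 3, 4 and 5 at day 4. At day 14 the shares were 5.73%, 8.68% and 12.3%. These comparisons share the rats of group 2, so their counts are not independent of each other.

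Among the PAR bZIP activators, Dbp moved most. In group 2 it read 6.89, 6.82, 6.74, 8.12 and 9.04 at day 4 and 7.11, 7.40, 6.85, 7.81 and 7.13 at day 14, as log2 intensities. In group 5 it read 10.66, 10.25, 10.03, 10.65 and 10.79 at day 4 and 10.85, 11.01, 10.68, 10.89 and 10.44 at day 14. Every rat of group 5 stood above every rat of group 2 on both days, and at day 4 the control rats themselves were spread, with replicates 4 and 5 well above the other 3. The difference was 2.95 ± 0.40 (SE, n = 5 rats in each group) at day 4, a 7.74-fold higher level (limma adjusted p = 0.00268), and 3.51 ± 0.16 at day 14. By size of the log2 difference Dbp ranked 2nd of all genes in both. In group 4, Dbp read 9.93, 11.14, 10.55, 10.80 and 10.69 at day 4 and 10.59, 10.00, 9.45, 10.86 and 10.94 at day 14. Those rats too stood above all of the control rats of their day, by 3.10 ± 0.41 at day 4 (8.56-fold, adjusted p = 0.0051), the largest difference of any gene in that comparison, and by 3.11 ± 0.27 at day 14 (8.64-fold, adjusted p = 6.59e-05).

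Group 3, with the mildest restriction, separated the 2 days. Dbp read 9.94, 8.41, 10.56, 7.76 and 9.36 at day 4 and 10.70, 10.85, 10.45, 10.85 and 11.15 at day 14. The day 4 rats ran from within the control range to the level of the more restricted groups, and the day 14 rats were tight and all above the control rats. The difference from group 2 was 1.68 ± 0.57 at day 4 (limma adjusted p = 0.314) and 3.54 ± 0.17 at day 14, 11.6-fold higher. A single fit over all 10 groups, which shares one estimate of the spread, called Dbp and Bhlhe40 in group 3 at day 4 with adjusted p of 0.043 and 0.0498.

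Tef, the second PAR bZIP activator, changed in the same groups with smaller differences. Group means were 8.47 ± 0.36 (SD, n = 5) in group 2 at day 4 and 8.45 ± 0.24 at day 14, against 9.52 ± 0.22 and 9.64 ± 0.20 in group 4 and 9.51 ± 0.22 and 9.72 ± 0.13 in group 5. The differences from group 2 were 1.06 and 1.05 at day 4 in groups 4 and 5, and 1.23, 1.19 and 1.27 in groups 3, 4 and 5 at day 14, all called and without overlap of the rats. In group 3 at day 4 the 5 rats read 9.24, 8.58, 9.40, 8.38 and 8.92, and the difference of 0.44 ± 0.21 was not called (limma adjusted p = 0.511). The other 2 probe sets of Tef gave differences of 0.75 to 1.19 in the groups where the main one was called, and were called there too.

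Hlf, the third of the family, had smaller differences. It read 9.33, 9.08, 8.94, 8.72 and 8.84 in group 2 at day 4 and 9.56, 9.88, 9.46, 9.73 and 10.03 in group 4, a difference of 0.75 ± 0.13 (limma adjusted p = 0.0132). All rats of group 4 lay above all of group 2. The difference was 0.78 in group 5 at day 4, and 0.82 in group 3 and 0.60 in group 4 at day 14, all called. In group 5 at day 14 Hlf read 9.78, 9.91, 9.80, 9.68 and 8.82, against 9.10, 9.45, 9.33, 9.15 and 9.04 in group 2. Replicate 5 fell below every control rat and the other 4 stood above them. The difference of 0.38 ± 0.18 was not called with it (adjusted p = 0.199) and was 0.58 and called without it (adjusted p = 0.00291). With that rat kept, the difference was called in a single limma fit over all groups (adjusted p = 0.0844) and with array weights (0.0549). Of 3 further Hlf probe sets, 2 bright ones were called in the same comparisons as the main one, and the third, below 5.31 on all 49 arrays, was called in none against group 2.

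Nfil3, the D-box repressor, was the one gene of the 6 called lower than group 2 in restricted rats. In the fits of one pair of groups this was at day 4 only. It read 10.01, 9.77, 9.79, 9.77 and 8.92 in group 2 at day 4. It read 8.98, 8.70, 8.39, 8.79 and 8.61 in group 4 and 8.42, 8.18, 8.10, 9.05 and 8.81 in group 5. The groups overlapped through control replicate 5 alone, and Nfil3 fell by 0.96 in group 4 (SE 0.18, limma adjusted p = 0.0184) and by 1.14 in group 5 (SE 0.22, adjusted p = 0.0165), or 1.94-fold and 2.20-fold lower. At day 14 it read 9.92, 9.57, 10.33, 9.75 and 8.92 in group 2, 9.49, 9.93, 10.08, 9.36 and 9.92 in group 4, and 10.05, 9.47, 9.63, 9.62 and 9.57 in group 5. Levels in the 3 groups overlapped, and the differences from group 2 were 0.06 (95% interval -0.44 to 0.55) in group 4 and -0.03 (-0.49 to 0.43) in group 5. In group 3 the differences were -0.77 at day 4 (adjusted p = 0.312) and -0.72 at day 14 (adjusted p = 0.149). The latter was -0.91 and called without control replicate 5 of day 14 (adjusted p = 0.0367). With every rat kept, that day 14 difference was also called in a single limma fit over all groups (adjusted p = 0.0677) and with array weights (0.0809).

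Bhlhe41, the E-box repressor DEC2, was near the bottom of the measured range in the control rats of both days and higher in most restricted groups. It read 5.09, 5.21, 4.58, 4.91 and 5.25 in group 2 at day 4 and 5.00, 4.86, 4.81, 5.21 and 5.13 at day 14. It read 5.86, 8.04, 6.63, 6.82 and 7.41 in group 4 and 6.89, 6.55, 5.32, 7.17 and 6.86 in group 5 at day 4. At day 14 it read 7.45, 6.41, 5.61, 7.32 and 7.42 in group 4 and 7.60, 7.97, 7.23, 7.76 and 7.46 in group 5. No restricted rat of these groups fell into the range of its control, although single rats in groups 4 and 5 came close. The differences from group 2 were 1.94 ± 0.32 and 1.55 ± 0.29 at day 4 and 1.84 ± 0.31 and 2.60 ± 0.13 at day 14 in groups 4 and 5, the last with a limma adjusted p = 3.57e-07. All 19 rats of groups 1 and 2 lay below 5.31, at 4.52 to 5.29, so folds are given as bounds against that level. Bhlhe41 was at least 3.13-fold and 2.38-fold higher in groups 4 and 5 at day 4, and at least 3.44-fold, 2.90-fold and 4.92-fold higher in groups 3, 4 and 5 at day 14. Group 3 read 6.27, 4.91, 7.38, 4.75 and 5.55 at day 4 (difference 0.77, adjusted p = 0.564) and 6.88, 7.53, 6.69, 6.74 and 7.60 at day 14 (difference 2.09 ± 0.18, adjusted p = 5.95e-05).

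Bhlhe40, its paralogue DEC1, was lowest in the fasted control rats. It read 7.25, 6.29, 7.38, 5.67 and 6.66 in group 2 at day 4 and 7.77, 7.78, 7.40, 7.56 and 7.73 at day 14. In group 5 it read 9.46, 9.34, 8.24, 8.83 and 9.10 at day 4 and 8.98, 9.64, 9.59, 9.13 and 8.84 at day 14. All rats of group 5 were above all control rats of their day, with differences of 2.34 ± 0.32 (5.07-fold, limma adjusted p = 0.00289) and 1.59 ± 0.15 (adjusted p = 5.38e-05). Groups 3 and 4 at day 14 and group 4 at day 4 were called as well, at 1.64, 1.67 and 2.06. In group 3 at day 4 the rats read 7.84, 7.52, 8.35, 7.53 and 8.38, all above the control rats, and the difference of 1.27 ± 0.31 did not pass over all genes (adjusted p = 0.174).

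**Figure D2:**
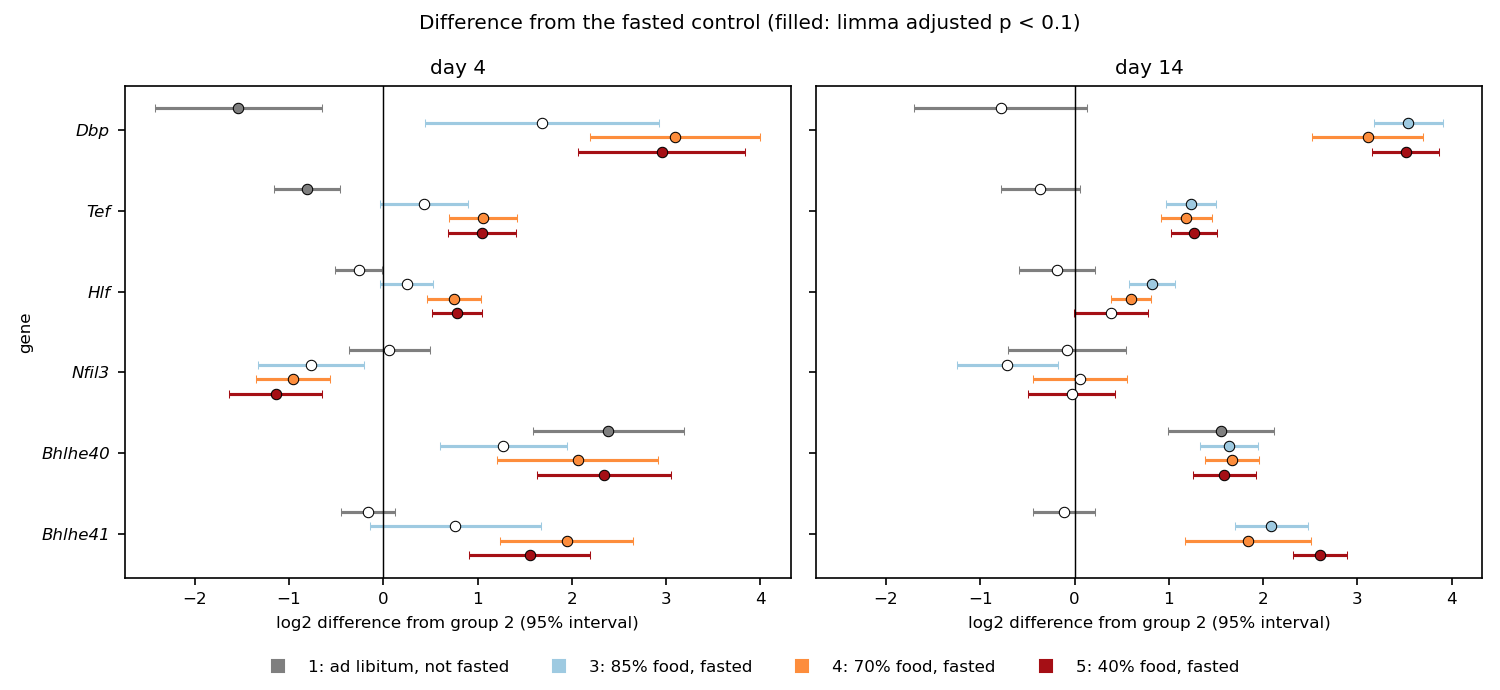
Log2 difference from group 2 of the same day (horizontal axis) for each gene (vertical axis), with 95% intervals; filled points passed limma's adjusted p under 0.1. Bhlhe40 is higher in the unfasted group 1 as well as in the restricted groups, and Nfil3 lies below 0 in groups 4 and 5 at day 4 and near 0 at day 14.

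The comparison of group 1 with group 2 addressed the overnight fast alone, in rats fed ad libitum. At day 4, 3 of 6 genes were called, where 21.3% of all genes were, and at day 14 1 of 6, where 13.2% were. Separation of the rats was common here: those of the 2 groups did not overlap for 1847 of 14217 genes at day 4 and 1704 at day 14. Bhlhe40 read 9.83, 9.44, 8.07, 8.72 and 9.12 in the unfasted rats at day 4 and 9.81, 9.07, 8.29 and 9.65 at day 14. All of them were above the fasted rats of their day, by 2.39 ± 0.37 (5.24-fold, limma adjusted p = 0.00141) and 1.56 ± 0.26 (2.94-fold, adjusted p = 0.00415). Dbp read 5.81, 6.32, 5.83, 6.39 and 5.58 at day 4, below every fasted rat, and differed by -1.54 ± 0.40 (adjusted p = 0.0242). Tef ran from 7.48 to 7.92, also below every fasted rat, and differed by -0.81 ± 0.16 (adjusted p = 0.00558). At day 14 Dbp read 6.02, 8.12, 5.93 and 5.83 in group 1, with replicate 2 apart from the other 3. With that rat the difference was -0.78 for Dbp (adjusted p = 0.307) and -0.36 for Tef (adjusted p = 0.296), and without it -1.33 (adjusted p = 0.00299) and -0.56 (adjusted p = 0.0512). With every rat kept, the other 2 probe sets of Tef differed by -0.75 (limma adjusted p = 0.0288) and -0.30 (adjusted p = 0.502). Hlf differed by -0.26 at day 4 (adjusted p = 0.151), and by -0.33 without control replicate 4 (adjusted p = 0.0821). Nfil3 differed by 0.06 at day 4 and by -0.08 at day 14, neither called. Bhlhe41 was below 5.31 in every rat of both groups, so no difference is given for it.

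Set against the unfasted group 1, the restricted groups gave larger differences for the PAR bZIP genes. The food amount and the overnight fast both differed in these comparisons, so their parts cannot be told apart here. At day 4, 5 of 6 genes were called in each of groups 3, 4 and 5, where 16.3%, 22.7% and 23.8% of all genes were. At day 14, 4 were called in group 3, 4 in group 4 and 3 in group 5, where 22.4%, 24.7% and 34.1% of all genes were. Dbp was higher in all 6 comparisons, by 3.22 to 4.63, and the difference of 4.63 ± 0.21 in group 4 at day 4 was 24.8-fold (limma adjusted p = 4.45e-07) and the largest of any gene there. Bhlhe40 was lower in group 3 at day 4 (8.07 to 9.83 in group 1, 7.52 to 8.38 in group 3, adjusted p = 0.0341). In the other 5 it differed by -0.33 to 0.11, none called, with the widest 95% interval from -1.17 to 0.51. Nfil3 was lower at day 4 (differences of -0.83, -1.02 and -1.20 in groups 3, 4 and 5, all called), and was called in none at day 14. A few differences from group 1 that did not pass depended on single rats and on the fit used. In group 3 at day 14 Nfil3 differed by -0.63 (adjusted p = 0.121) and passed in 4 of 9 fits that each left out 1 rat, with adjusted p from 0.0712. Hlf in group 5 at day 14 differed by 0.57 (adjusted p = 0.121) and passed without replicate 1 of group 1 (0.0796) or replicate 5 of group 5 (0.0169). Bhlhe41 in group 3 at day 4 differed by 0.93 (adjusted p = 0.187) and passed without replicate 4 of group 3 (0.0852). With every rat kept, a single limma fit over all groups called Nfil3 (adjusted p = 0.0844), Hlf (0.00773) and Bhlhe41 (0.0871) in these comparisons. Array weights called Nfil3 (0.083) and Hlf (0.0461), and the mean of the probe sets called Hlf (0.0794).

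Between the 3 restricted diets 1 of 36 tests on these genes passed. At day 4 no gene of the 6 was called between any of the 3 pairs of diets by limma. Unadjusted p-values under 0.05 numbered 5 for group 4 against 3, 4 for group 5 against 3 and none for group 5 against 4, where 0.0211%, 0.83% and 0.0141% of all genes were called. The differences of group 4 from group 3 at day 4 were 1.42 for Dbp (95% interval 0.44 to 2.39), 0.62 for Tef (0.22 to 1.02), 0.50 for Hlf (0.22 to 0.78), 0.79 for Bhlhe40 (0.07 to 1.51) and 1.18 for Bhlhe41 (0.08 to 2.27). Groups 5 and 4 differed by -0.14 for Dbp (-0.60 to 0.31) and -0.01 for Tef (-0.28 to 0.27). Of Hlf and Bhlhe40, group 5 against group 3 at day 4 gave adjusted p of 0.102 and 0.103. Both passed without replicate 3 of group 3 (0.0695 and 0.0907), and Bhlhe40 also without replicate 3 of group 5 (0.0483). At day 14 the one call was Nfil3, higher in group 5 than in group 3 by 0.69 ± 0.18 (limma adjusted p = 0.0465), with group 3 at 8.60, 8.62, 9.37, 9.46 and 8.86 and no overlap. It did not pass without replicate 1 of group 5 (0.106), replicate 2 of group 3 (0.107) or replicate 5 of group 3 (0.108). At day 14, 0.0492%, 9.55% and 0.366% of all genes were called for group 4 against 3, 5 against 3 and 5 against 4. Unadjusted p-values under 0.05 there numbered 1, 3 and 1 of 6. Nfil3 was also higher in group 4 than in group 3, by 0.77 (95% interval 0.35 to 1.20), which was not called (limma adjusted p = 0.293). The rats did not overlap for 7.12% of all genes in group 5 against 3. Dbp and Tef differed by at most 0.43 between these diets at day 14, and neither was called. Bhlhe41 of group 5 exceeded that of group 3 by 0.52 (adjusted p = 0.16, and 0.0999 without replicate 3 of group 5).

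The same diet was also compared between days, in different rats. In group 1 and in group 2 none of the 6 genes was called by limma, 1 in each had an unadjusted p under 0.05, and 0% and 0.00703% of all genes were called. In group 2 Bhlhe40 was 1.00 ± 0.27 higher at day 14, without overlap (adjusted p = 0.352), where 1.54% of all genes did not overlap. In group 3 the later rats had higher levels of 5 of 6 genes, where 12.8% of all genes were called. The differences were 1.59 for Dbp (adjusted p = 0.0478), 0.78 for Tef, 0.81 for Hlf, 1.36 for Bhlhe40 and 1.32 for Bhlhe41 (adjusted p = 0.0909). Dbp did not pass without replicate 5 of day 14 (adjusted p = 0.102), and Bhlhe41 did not pass in 7 of 10 fits that each left out 1 rat, with adjusted p up to 0.184. In group 4 Nfil3 alone was called (5.47% of all genes), higher at day 14 by 1.06 ± 0.15 (adjusted p = 0.00588). In group 5 (6.71% of all genes) Nfil3 was higher by 1.16 ± 0.18 (adjusted p = 0.011) and Bhlhe41 by 1.04 ± 0.29 (adjusted p = 0.0747), the latter lost in 5 of 10 fits without 1 rat, with adjusted p up to 0.146. No rat of groups 4 and 5 at day 4 reached the Nfil3 level of any rat of its diet at day 14. Between the days, 4.63% of all genes in group 4 and 5.57% in group 5 did not overlap.

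Whether the difference from group 2 itself changed between days was tested as an interaction in limma. None of the 6 genes was called for group 1, 3, 4 or 5, where 0%, 0.591%, 0.134% and 2.04% of all genes were. Unadjusted p-values under 0.05 numbered 0, 4, 1 and 2 of 6. For Nfil3 the change was 1.02 ± 0.31 in group 4 (adjusted p = 0.239) and 1.11 ± 0.33 in group 5 (adjusted p = 0.125). In group 5 it passed without replicate 3 of group 2 at day 14 (0.0798), replicate 5 of group 2 at day 4 (0.0725) or replicate 4 of group 5 at day 4 (0.0741). For Bhlhe41 the change was 1.32 ± 0.49 in group 3 (adjusted p = 0.315, and 0.0269 without replicate 3 of group 3 at day 4) and 1.05 ± 0.34 in group 5 (adjusted p = 0.162, and 0.0845 without replicate 4 of group 5 at day 4). For Dbp in group 3 it was 1.86 ± 0.64 (adjusted p = 0.276). Nfil3 was thus called lower at day 4 and not at day 14 in groups 4 and 5, but the change in that difference did not pass over all genes.

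Rats of one group also differed together in several of these genes. The rats of group 3 at day 4 show it: replicates 3 and 1 had the highest Dbp, Tef and Bhlhe41 and the lowest Nfil3, and replicate 4 had the lowest Dbp, Tef and Bhlhe41 and the highest Nfil3. Over the 49 rats, after each group's mean was removed, Dbp correlated with Tef at r = 0.89, with Bhlhe41 at 0.69, with Hlf at 0.28, with Nfil3 at -0.51 and with Bhlhe40 at 0.08. Over the 10 group means these were 0.99, 0.96, 0.93, -0.56 and 0.36. Bhlhe40 and Bhlhe41 correlated at 0.28 within groups and 0.53 over the means. In the 28 rats with Bhlhe41 above 5.31 Dbp read 9.36 to 11.15, and in the other 21 it read 5.58 to 9.04, without overlap. This split pools the diets and largely follows them. All 19 rats of groups 1 and 2 were below 5.31, and only group 3 at day 4 had rats on both sides. Replicate 3 of group 5 at day 4 was just above the line, at 5.32. The values are descriptions, since the genes of a rat share its array, and the 10 means share few distinct feeding states.

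**Figure D3:**
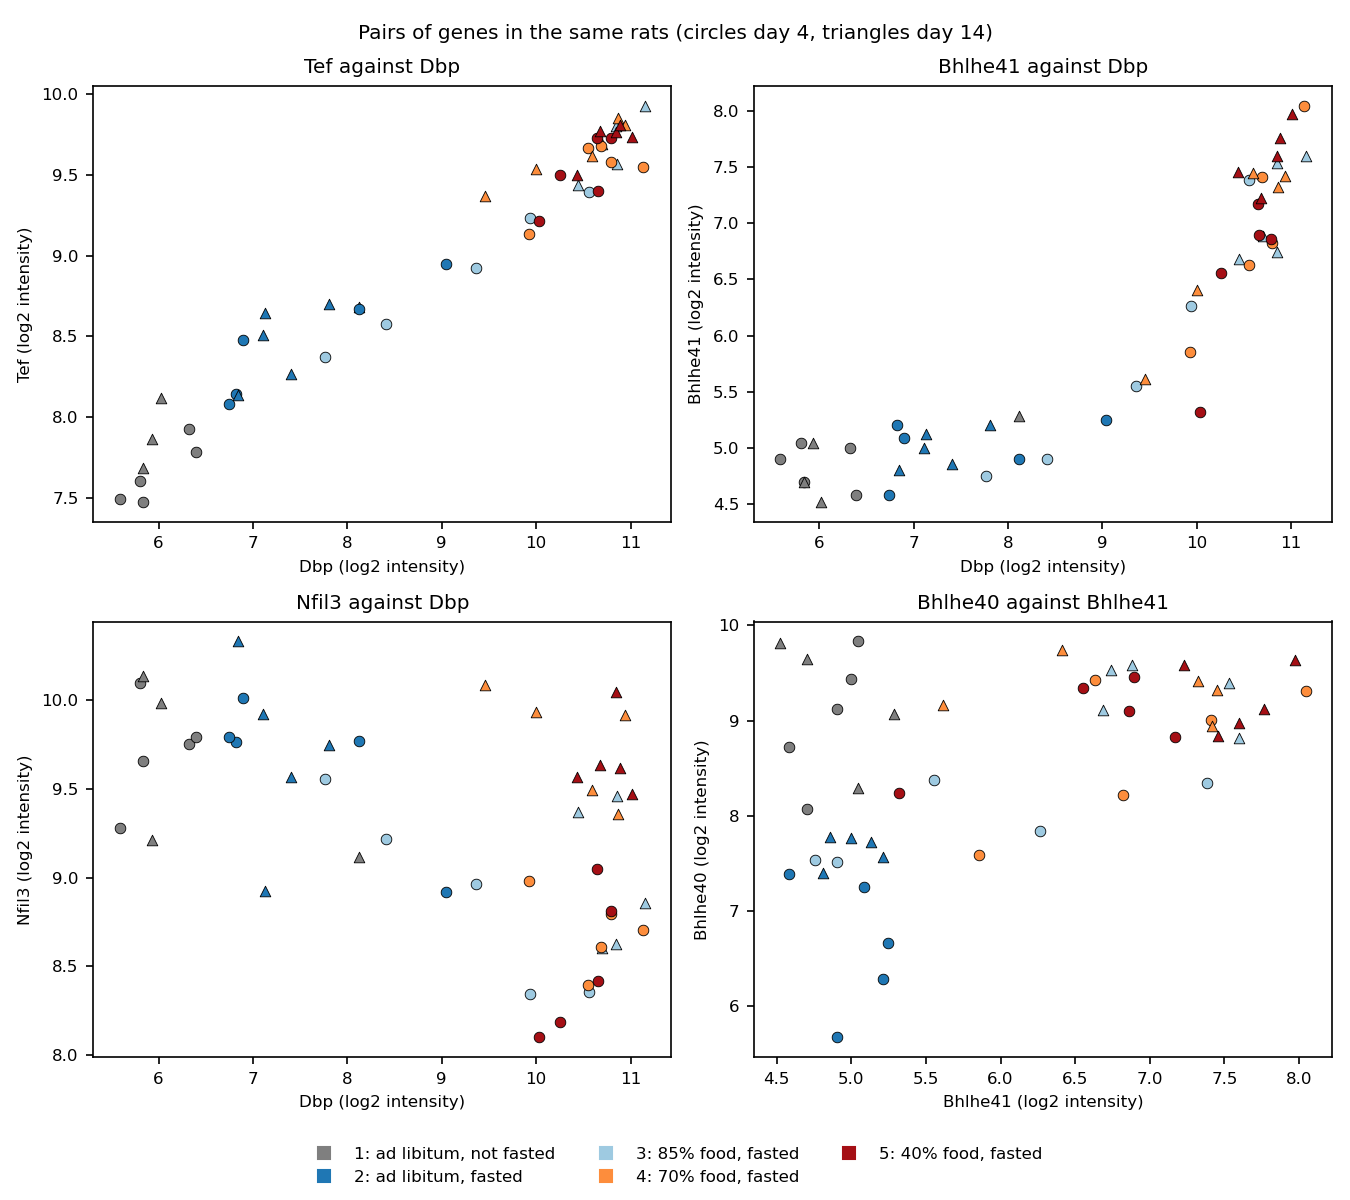
Log2 intensities of 2 genes in the same rat, coloured by diet group, with circles for day 4 and triangles for day 14. Tef follows Dbp across all 49 rats, Bhlhe41 exceeds 5.31 only in rats with Dbp at 9.36 or more, Nfil3 at high Dbp splits by day in groups 4 and 5, and the unfasted rats combine high Bhlhe40 with low Bhlhe41.

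The genes most like each member over the 10 group means were, for Dbp, Nr1d2 (which encodes the receptor REV-ERB beta, r = 0.993), Tef and the clock repressor gene Per3 (0.983), and the most opposite included Bmal1 (-0.987). Tef was most like Nr1d2 (0.993), Dbp and Gpr146 (0.987). Bhlhe41 was most like Per3 (0.984), Tob1 (0.982) and Bri3 (0.98). Hlf was most like Fam8a1, Mcm9 and Tom1l1, and Nfil3 most like Sccpdh, Sod2 and Flrt2, at r from 0.932 to 0.98. Bhlhe40 was most like Thrsp (0.962), a gene of lipogenic feeding, Mknk2 (0.961) and Nadk2 (0.948). Of the 18 genes so named, 1 was also among the top 3 by Spearman correlation, so the choice of genes is loose. The Spearman values were 0.745 (Sccpdh), 0.733 (Sod2) and 0.636 (Flrt2) with Nfil3 and 0.661 for Thrsp with Bhlhe40. For the rest they were 0.891 or more. Within groups Per3 correlated with Dbp at 0.816 and Bmal1 at -0.842, and Thrsp with Bhlhe40 at 0.256. Mknk2 and Nadk2 correlated with Bhlhe40 there at 0.075 and 0.014. For Hlf the values were 0.527 (Fam8a1), 0.155 (Mcm9) and 0.528 (Tom1l1), and for Nfil3 0.220 (Sccpdh), 0.324 (Sod2) and 0.052 (Flrt2). The group means of Sccpdh and Flrt2 spanned only 0.19 log2 units each.

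The rest of the clock gave the setting for these changes. Of 4 measured activators, Bmal1, Clock and Npas2 were lower in groups 4 and 5 at day 4 and in groups 3, 4 and 5 at day 14, and Bmal2 was not called in these. Bmal1 differed by -2.38 in group 4 at day 4 and by -2.80 in group 5 at day 14. Of 5 measured PER and CRY repressors, 3 and 4 were higher at day 4 in groups 4 and 5, and 2, 4 and 5 at day 14 in groups 3, 4 and 5, none lower. Per2 and Per3 were called in all 5, with differences of 1.95 to 2.27 and 2.10 to 2.69. Of 4 nuclear receptors of the loop, Nr1d2 was higher in all 5, by 1.02 to 1.64, and Nr1d1, its relative, by 1.14 in group 4 at day 4 alone. Rora, a receptor that activates Bmal1, was lower in group 5 at day 4 (-0.57). In group 3 at day 4 none of these 13 genes was called. In the unfasted group 1 Npas2 was higher on both days, by 1.30 and 0.95, and at day 4 Bmal2 and Rora also were. Of 9 measured genes listed as other clock-driven genes, 1, 3 and 4 were higher in groups 3, 4 and 5 at day 4 and 5, 5 and 9 at day 14, none lower. The last count stood where 19.8% of all genes were called, and among its genes were Usp2, a deubiquitinase (2.37), Noct, a phosphatase that acts on NADPH (2.96), and Nampt, an NAD synthesis enzyme (1.75).

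Genes described as driven by DBP, TEF or HLF in liver were called in both directions against group 2 and in one direction against group 1. Of 9 measured, none was called in group 3 at day 4 against group 2, and 2 were higher and 4 lower in each of groups 4 and 5 at day 4. At day 14, 2 were higher and 1 lower in group 3, 4 and 1 in group 4, and 3 and 2 in group 5. Against group 1, 6, 4 and 6 were higher in groups 3, 4 and 5 at day 4 and 6, 5 and 4 at day 14, none lower, with medians of 0.51 to 1.09. Group 1 itself was lower than group 2 in 6 of the 9 at day 4 and 5 at day 14, with none higher. Por, the electron donor of cytochromes P450, was higher in all 5 of these comparisons, by 1.15 to 1.58, and lower in group 1 on both days (-0.56 and -1.03). Cyp7a1, the first enzyme of bile acid synthesis, was higher in group 4 by 1.17 and in group 5 by 1.47 at day 4, and by 1.73 and 1.56 at day 14. The acyl-CoA thioesterase genes Acot1, Acot2, Acot3 and Acot4 were lower in groups 4 and 5 at day 4 (-2.41, -1.62, -1.74 and -1.43 in group 4), and also in the unfasted group 1 at day 4 (-2.48, -1.92, -2.08 and -1.94). Alas1, the first enzyme of heme synthesis, was called only in group 4 at day 14 (1.13). The median log2 difference of the 9 genes was 0.00 and 0.24 in groups 4 and 5 at day 4 and -0.12, -0.08 and 0.29 in groups 3, 4 and 5 at day 14. Over all 14217 genes the median lay between -0.0018 and 0.0129 in the 8 comparisons with group 2.

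Relatives of the 6 factors were called in part. Of 4 C/EBP genes, bZIP factors that can share sites with the PAR bZIP proteins, Cebpb was higher in groups 4 and 5 at day 14 (1.02 and 0.97), Cebpa in groups 3 and 5 at day 4 (0.43 and 0.63) and group 3 at day 14 (0.43), and Cebpg in group 5 at day 14 (0.27). Cebpg was lower in group 1 at day 4 (-0.23). Of 7 other bHLH repressor and ID genes, Hes6 was higher in groups 4 and 5 at day 4, in groups 3, 4 and 5 at day 14 and in group 1 on both days (0.88 to 1.50). Id1 and Id4, which encode inhibitors of bHLH factors, were higher in group 5 at day 14 (1.13 and 0.41). Group 1 had lower Hey1 on both days (-0.50 and -0.38) and lower Id4 at day 4 (-0.42). Of 4 measured kinases and ubiquitin ligase genes that act on clock proteins, Csnk1d alone was called, in groups 4 and 5 at day 14 (0.49 and 0.55).

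**Figure D4:**
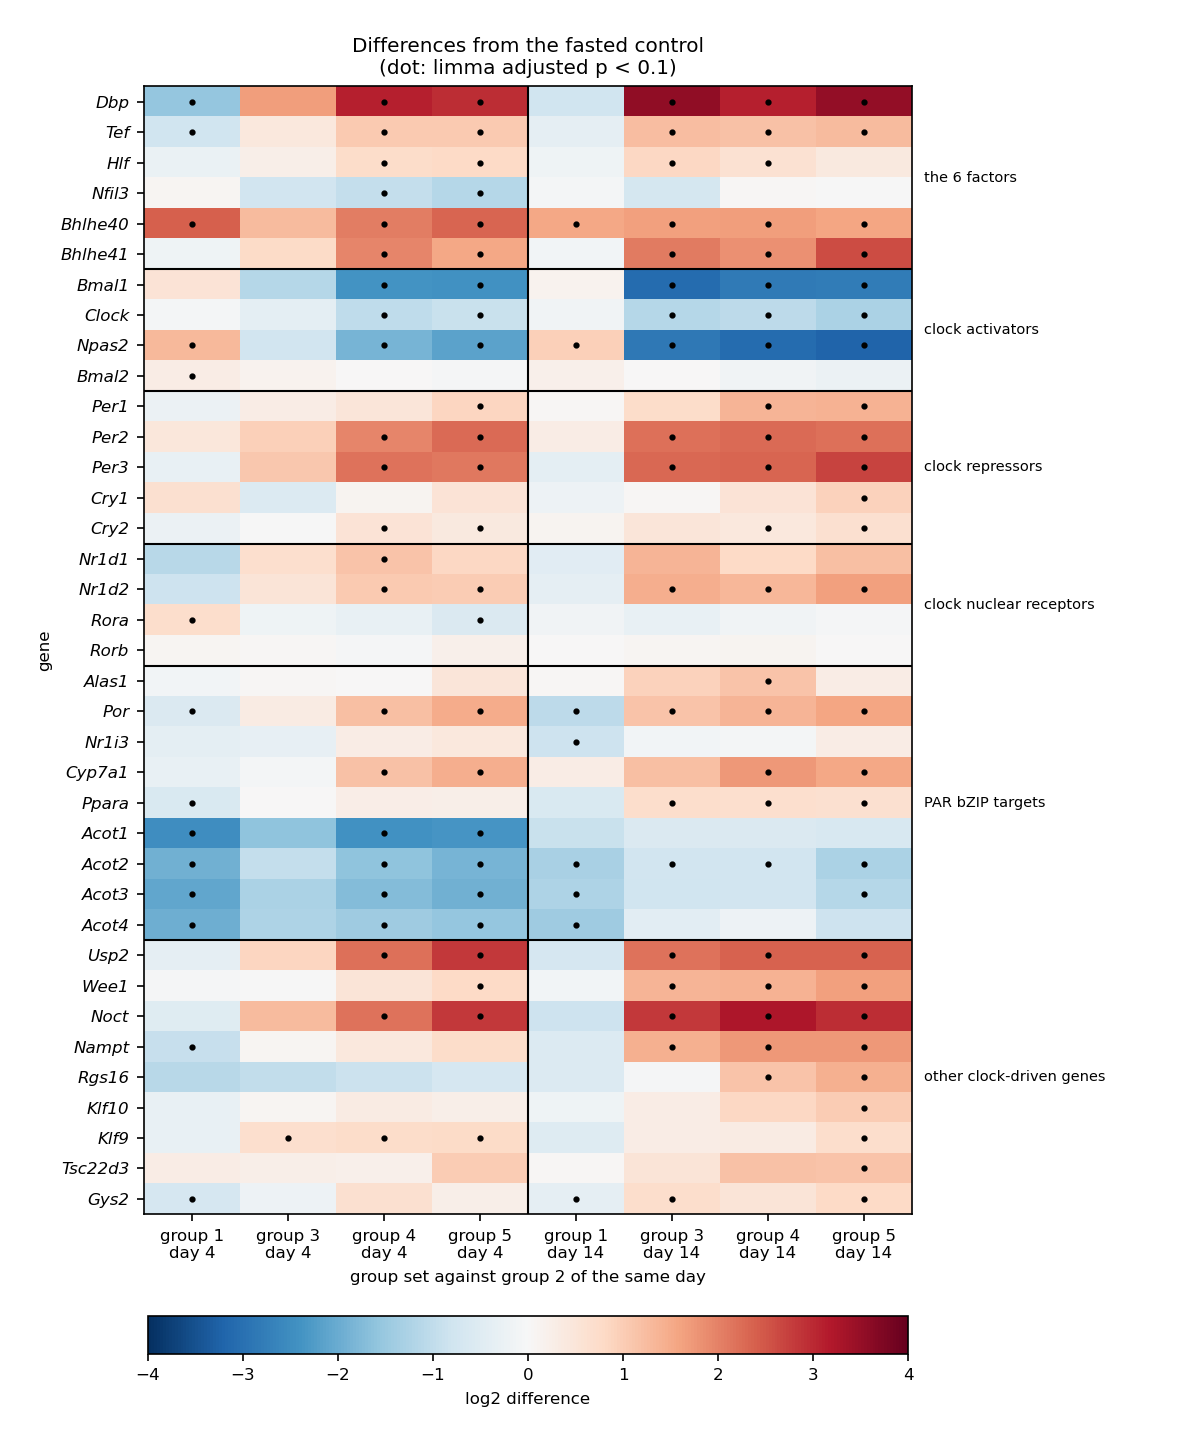
Log2 difference from group 2 of the same day (colour) for the 6 factors and for lists of other clock genes and targets (rows) in 8 comparisons (columns), with a dot where limma's adjusted p was under 0.1. Group 3 at day 4 has a dot for Klf9 alone, Bmal1, Clock and Npas2 are blue where Dbp, Tef and Bhlhe41 are red, and the 4 Acot genes are blue in group 1 as well as in groups 4 and 5 at day 4.

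The arrays had medians from 6.34 to 6.43 on the log2 scale, and no arrays held identical values. Of 5 measured fasting response genes, 3 at day 4 and 2 at day 14 were lower in group 1 than in group 2, none higher. There 21.3% and 13.2% of all genes were called. Cpt1a, a fasting-induced gene of fatty acid import into mitochondria, was lower by -1.83 at day 4 and -1.34 at day 14. Of the same list, 2 were lower in each of groups 4 and 5 at day 4. In group 5 at day 14, 2 were higher and 1 lower. The summed intensity of 5 hepatocyte markers lay between 94680 and 105554 in every rat. Against group 2, 1 of the 5 was lower in group 1 on each day and 1 higher in group 5 at day 4. In each of groups 4 and 5 at day 14, 1 was higher and 1 lower. The sum of 3 erythroid markers was 1224 to 3476 in group 5 at day 14 against 7365 to 10641 in group 2, with 2 of the 3 called lower, Hbb by -2.14 and Alas2 by -1.98. In group 4 at day 14 the sum was 3720 to 9570 and the same 2 were lower (-0.85 and -0.96), and in group 1 at day 14 Hbb was (-0.40). Group 5 at day 14, where 19.8% of all genes were called, also had 3 of 8 T and NK cell markers lower (-0.36 to -0.30). Their sums were 474 to 541 against 525 to 624, and 3 of the 8 had means under 5.31. There 1 of 3 B cell markers (Ms4a1, -0.40), 1 of 5 Kupffer cell markers (Adgre1, -0.39) and 1 of 7 stellate cell markers (Pdgfrb, -0.80) were lower. In the same comparison 1 of 5 endothelial and 1 of 4 cholangiocyte markers were higher. Pdgfrb was also lower in groups 4 and 5 at day 4 and groups 3 and 4 at day 14 (-0.59 to -0.55). Other stellate cell markers went the other way at day 14, with 1 of 7 higher in group 3 and 2 of 7 in group 4. In these groups 6.54% and 12.8% of all genes were called. The median differences of that list there were 0.05 and 0.25. Of 7 stellate cell and fibroblast markers, 3 at day 4 and 4 at day 14 were higher in group 1, where 21.3% and 13.2% of all genes were called. The sums were 3109 to 5462 against 1833 to 3379 and 3398 to 4430 against 2107 to 3156. The part of these markers in the results was not tested. In whole liver, a change in the share of a cell type and a change in RNA per cell cannot be told apart. Each rat gave a single time of day, and the clock time of necropsy was not given in the sources used here, so a change in the level of a rhythmic gene and a shift in its daily phase cannot be told apart. Day and any batch of arrays cannot be told apart either.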

How the data were processed

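The authors hybridised liver RNA to Affymetrix rat genome arrays, checked them in Affymetrix Expression Console and normalized them by RMA (R 3.0.1, affy 1.38.1). The deposited intensities are linear whole numbers for 31042 probe sets and were turned into log2 here. Quantile normalization within RMA assumes a like distribution on every array, and rounding gives steps of 0.017 at the median intensity of 83. Of the probe sets, 20826 had 1 gene symbol, 436 several and 9780 none, and the brightest of each symbol gave 14217 genes. The members and lists were chosen with earlier results of these data known. Differences in the deposited data were fitted with limma 3.58.1 in R 4.3.3 and adjusted over all genes, by code first checked on simulated data. The threshold follows the study's false discovery rate of 0.1, but its mixture model was not run. Groups came from the sample titles, which leave group 1 unfasted, whereas the series' design text has all animals fasted. All 6 members are named in every comparison, with the 3 genes most like each and the measured genes of the lists. The number of arrays limits the precision, and each sample is a separate rat. Alternatives covered the threshold, a joint fit, dim genes, probe sets, normalization, offset, robust and weighted fits, and each rat left out.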

Additional observations from a re-analysis of the deposited data

Results flagged for a closer look

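In 60 sets of rats (6 genes in 10 diet-by-day groups), the highest or lowest rat was tested for its gap to the nearest other by Dixon's criterion, which flags about 1 in 20 groups by chance. It picked out 6. Dbp read 8.12 in replicate 2 of group 1 at day 14, where the other 3 rats read 5.83 to 6.02. Tef read 9.13 in replicate 1 of group 4 at day 4 (others 9.55 to 9.68) and 9.50 in replicate 5 of group 5 at day 14 (others 9.73 to 9.81). Hlf read 8.82 in that same replicate 5 of group 5 at day 14 (others 9.68 to 9.91). Nfil3 read 8.92 in replicate 5 of group 2 at day 4 (others 9.77 to 10.01) and 10.05 in replicate 1 of group 5 at day 14 (others 9.47 to 9.63). None of the 24 interactions of diet and day in these genes passed limma's adjusted p under 0.1, and 7 had an unadjusted p under 0.05.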

How the results depend on the processing

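Of 48 tests of the 6 genes against group 2, 30 were called, and 30 to 32 were with any 1 rat left out. Against group 1, 26 of 36 were called (26 to 27 with a rat left out), and between days 8 of 30 (6 to 8). No called difference of a single gene changed sign under any setting run. Calls between the restricted diets, 1 of 36, numbered 6 in a joint fit of all group means, 3 without dim genes, and 2 with an offset of 16, robust empirical Bayes or array weights, and ran from 0 to 3 with a rat left out. Interactions of diet and day, 0 of 24 called, gave 1 in the joint fit, 1 after a second quantile normalization and 1 with array weights, and 0 to 2 with a rat left out.

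By comparison, the joint fit called 2 genes in group 3 against 2 at day 4 (0 before), 1 in group 4 against 3 at day 4 (0), 3 in group 5 against 3 at day 4 (0), 2 in group 5 against 3 at day 14 (1) and 1 in the interaction of group 5 (0). Group 5 against 3 at day 4 had 2 calls without dim genes, and 1 with the offset, robust fit or weights. The interaction of group 5 had 1 after quantile normalization or with weights. Group 1 against 2 at day 14 had 2 calls in place of 1 with another probe set of Tef. The days of group 5 had 1 call in place of 2 at an adjusted p under 0.05 or with the robust fit. With a rat left out the counts were 1 to 3 for group 1 against 2 at day 14, 0 to 2 for group 5 against 3 on each day, 3 to 5 and 1 to 2 for the days of groups 3 and 5, and 0 to 1 and 0 to 2 for the interactions of groups 3 and 5. The cause of these changes was not tested.

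By Spearman correlation 1 of the 18 genes most like a member was shared. No paired analysis was possible because the labels give no replicate numbers shared between groups.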
